A study of Mus musculus with 4 samples.

Results

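The genes of oxidative phosphorylation were taken from the annotation by their names alone: every gene whose symbol begins with Nduf, Uqcr, Atp5, Sdh followed by a, b, c or d, Cox4 to Cox8, mt-Nd, mt-Co, mt-Atp or mt-Cytb. The rule found 110 of the 31053 annotated genes, 97 of them in the nuclear genome and 13 in the mitochondrial genome. Of the nuclear genes, 12 were counted as assembly factors by their names (Ndufaf or Sdhaf) and the other 85 as subunits, Cox7a2l among them. Grouped by name, complex I holds 38 nuclear subunits, complex II 4, complex III 8, complex IV 18 and complex V 17. One nuclear gene, Atp5o, stands in the annotation under a pair of identifiers, of which 1 had no count. In all, 106 of the 110 genes had at least 1 unique molecular identifier (UMI, a tag that marks 1 captured RNA molecule). Cox8b, Cox7b2 and Cox8c, the testis or muscle forms of complex IV subunits, had none.

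Oxidative phosphorylation makes ATP in the inner membrane of the mitochondrion. Complexes I to IV pass electrons from NADH and succinate to oxygen and complexes I, III and IV pump protons, and complex V, the ATP synthase, lets the protons return and makes ATP. Complex II is built from nuclear genes only. The other complexes mix a few subunits that are transcribed inside the mitochondrion with many that are transcribed in the nucleus and imported, so the RNA of a single complex comes from a pair of genomes. Lymphocytes that leave rest and divide are known for building mitochondria as they grow.

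The cells were liver mononuclear cells of C57BL/6 mice aged 8 to 10 weeks, freed by enzymatic dissociation, enriched on Percoll and sequenced with a droplet 5′ assay. There were 4 libraries, 1 per group: Naïve, from mice without concanavalin A; ConA+Veh, from mice given concanavalin A, a plant lectin that activates T cells and causes acute hepatitis, and the corn oil vehicle; ConA+TCDD, from mice given concanavalin A and TCDD, a chlorinated dioxin and slowly cleared ligand of the aryl hydrocarbon receptor; and ConA+FICZ, from mice given concanavalin A and FICZ, an indolocarbazole derived from tryptophan and rapidly cleared ligand of the same receptor. The ConA cells were taken 24 h after the lectin, and how many mice stood behind a library is not given in the sources used here. With 1 library per group there was no replicate check and no test: every difference below compares libraries, and its 95% interval covers counting error only.

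The libraries held 1880 to 2779 cells, with 5952445 to 19252211 UMIs each and a median of 2161 UMIs per cell in Naïve against 3147 to 3984 in the 3 ConA libraries. Between 4 and 15 cell barcodes were shared by each pair of libraries. Cells were assigned by at least 2 marker genes of a type, and at most 1 of each other type, to 12 gates and a group of other T-like cells, and 72.7% to 88.3% of the cells of a library passed one. The names are those of the gates: in the B-like gate, Cd79a of the B cell receptor stood at 2408 counts per 1000000 UMIs (CPM) against 50.7 in the other cells. Cd79a and the other gate genes were used to choose the cells and are no finding. Members were compared in 5 gates, the B-like (403 to 1080 cells), CD8 T-like (164 to 350), CD4 T-like (78 to 124), NK-like (129 to 219) and mononuclear phagocyte-like cells (28 to 160), where every library had at least 28 cells. No member was used to make a gate, and doublets were not removed.

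The promoters of 4 members are shown because the regulators of this gene set are known from motifs near the start site: nuclear respiratory factor 1 (NRF1) binds GC-rich palindromes, and ETS factors, among them the nuclear respiratory factor GABP, bind CCGGAA cores. Each line gives the 250 bases before the RefSeq start in mm10 (GRCm38.p6), 5′ to 3′ on the gene's strand, with every match to the searched letters in capitals.
Ndufa11, chr17:56717512-56717761 (+): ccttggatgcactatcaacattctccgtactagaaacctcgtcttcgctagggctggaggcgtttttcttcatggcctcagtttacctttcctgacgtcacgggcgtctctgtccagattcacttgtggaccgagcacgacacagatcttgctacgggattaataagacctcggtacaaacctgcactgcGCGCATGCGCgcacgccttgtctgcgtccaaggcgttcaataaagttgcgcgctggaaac
Ndufaf4, chr4:24897833-24898082 (+): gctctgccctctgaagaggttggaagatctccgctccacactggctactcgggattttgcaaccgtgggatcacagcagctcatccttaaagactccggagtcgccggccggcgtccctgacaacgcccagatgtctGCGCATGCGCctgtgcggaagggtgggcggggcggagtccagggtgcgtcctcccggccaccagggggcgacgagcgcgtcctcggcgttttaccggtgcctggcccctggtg
Atp5l, chr9:44920743-44920992 (−): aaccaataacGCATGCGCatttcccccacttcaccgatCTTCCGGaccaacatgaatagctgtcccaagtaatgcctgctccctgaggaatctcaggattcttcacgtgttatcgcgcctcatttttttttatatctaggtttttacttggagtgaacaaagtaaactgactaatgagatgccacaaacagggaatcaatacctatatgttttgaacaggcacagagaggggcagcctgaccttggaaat
Ndufc2, chr7:97399753-97400002 (+): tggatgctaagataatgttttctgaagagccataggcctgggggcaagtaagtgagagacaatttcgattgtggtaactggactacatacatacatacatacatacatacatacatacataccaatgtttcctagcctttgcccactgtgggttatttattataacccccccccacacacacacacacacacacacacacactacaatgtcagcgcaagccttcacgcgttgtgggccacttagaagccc
Ndufa11 and Ndufaf4 each held the palindrome that matches the NRF1 letters GCATGCGC on both strands, with matches that overlap, at 58 and 60 bases and at 111 and 113 bases before the start. Atp5l held 1 NRF1 match 240 bases before the start and 1 ETS match 212 bases before it. Ndufc2, whose RNA was among the most different between ConA+Veh and Naïve, had no match in this window.

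RefSeq promoters of 300 bases, 250 before the start and 50 after, could be matched to 78 members. GCATGCGC, read on both strands, was in 12 of 78 members (15.4%), against 689 of 17492 protein-coding genes (3.94%) and 2.71% of all 32851 promoters. The ETS letters CCGGAAG were in 21 members (26.9%), against 12.9% of the coding genes and 8.86% of all promoters. The YY1 letters AAGATGGCG, whose first 3 bases can be the last 3 of the ETS letters, were in 8 members (10.3%), against 2.14% and 1.4%. A match describes the letters of the promoter and is not evidence of binding.

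The nuclear members took a larger share of the RNA in ConA+Veh than in Naïve in every gate compared. In B-like cells they held 1.59% of UMIs in Naïve, 2.68% in ConA+Veh, 2.81% in ConA+TCDD and 2.64% in ConA+FICZ. In CD8 T-like cells the shares were 1.97%, 3.02%, 3.18% and 3.26% in the same order. The Naïve library was the lowest of the 4 in both gates, and the 3 ConA libraries stood close to each other. CD4 T-like cells had 2.32% in Naïve and 3.04%, 3.13% and 3.20% in the ConA libraries. NK-like cells had 2.01%, then 2.78%, 2.74% and 2.73%. Mononuclear phagocyte-like cells had 2.21%, then 3.04%, 2.95% and 2.69%. The log2 ratio of ConA+Veh over Naïve was 0.75 (0.73 to 0.76) in B-like, 0.62 (0.60 to 0.65) in CD8 T-like, 0.39 (0.35 to 0.42) in CD4 T-like, 0.47 (0.43 to 0.51) in NK-like and 0.46 (0.42 to 0.51) in mononuclear phagocyte-like cells. It was above 0 in all 5 gates under every alternative tried.

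**Figure D1:**
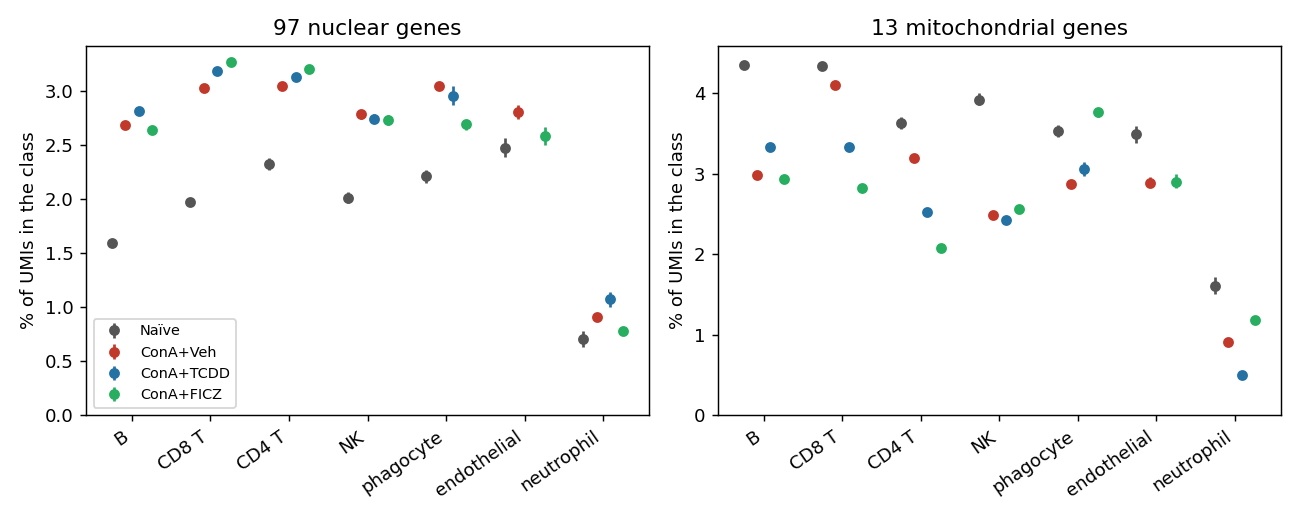
Share (%, linear axis) of a gate's UMIs held by the nuclear and, apart, the mitochondrial members in each of the 4 libraries. Bars are exact 95% Poisson intervals for counting error, with 1 point per library and gate. The gates are the 5 compared, endothelial-like and neutrophil-like cells, and groups under 20 cells are not drawn. The nuclear share is lowest in Naïve in each gate drawn, for example 1.59% against 2.64% to 2.81% in B-like cells.

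Depth moved with this result. The median B-like cell had 2118 UMIs in Naïve and 4163 in ConA+Veh, and the median CD8 T-like cell 3266 and 8786. Ribosomal protein genes took a larger share in B-like cells, 31.3% of UMIs in Naïve and 36.5% in ConA+Veh. In CD8 T-like cells they took a smaller one, 38.9% and 33.7%, and in CD4 T-like cells 33.1% in both. NK-like cells had 20.8% and 24.2%, and mononuclear phagocyte-like cells 17.5% and 18.1%. With cells thinned to 1000 UMIs, which gives each the same weight and left out 168 to 344 shallower cells a library, the B-like nuclear share was 1.48% in Naïve and 2.33% in ConA+Veh, and the CD8 T-like one 1.66% and 2.48%. Per cell, the mean number of nuclear member UMIs was 38.9 in Naïve and 151 in ConA+Veh B-like cells, and 83.2 and 353 in CD8 T-like cells.

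Gene by gene, a member was counted as higher or lower when its CPM differed by more than 1.5-fold and it had a combined 100 UMIs or more in both libraries. Because a UMI marks 1 end of 1 molecule, CPM was not divided by length. Many members have processed pseudogenes, and the mitochondrial genes have nuclear copies, with which reads can be shared, so the level of a single gene is less certain than a sum. In B-like cells 85 of the 97 nuclear members had enough UMIs, of which 58 were higher in ConA+Veh than in Naïve and 0 were lower, while 17.8% of all genes counted were higher and 30.6% lower. Among CD8 T-like cells 48 of 83 were higher and 1 was lower, against 31.5% and 13.5% of all genes. In CD4 T-like cells 25 of 76 were higher and 1 was lower, against 27.1% and 13%, so the count of higher members was near the background there. In NK-like cells 28 of 68 were higher and 0 lower, against 23.5% and 16.5%. In mononuclear phagocyte-like cells 26 of 68 were higher and 0 lower, against 21.9% and 12.4%. The median log2 ratio of the members counted was 0.74, 0.73, 0.43, 0.45 and 0.44 in this order of gates, beside medians over all genes of -0.19, 0.21, 0.22, 0.14 and 0.15.

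**Figure D2:**
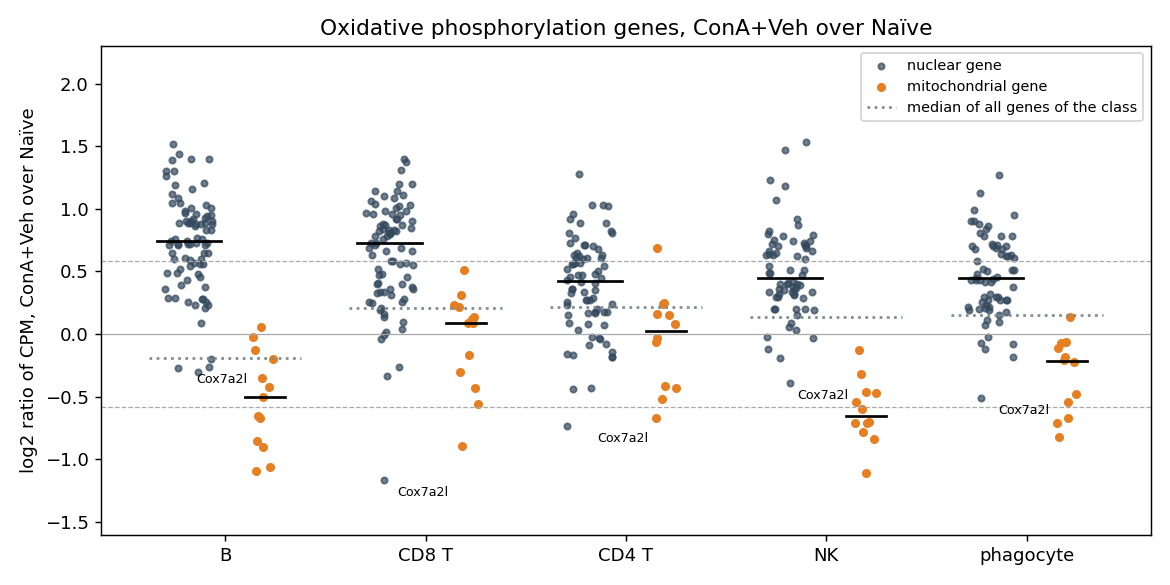
Log2 ratio of CPM, ConA+Veh over Naïve, of each member with a combined 100 UMIs or more in both libraries (1 point per gene), nuclear and mitochondrial members apart, in the 5 gates. Black bars are the medians, dotted lines the median of all genes and dashed lines 1.5-fold, and most nuclear points lie above 0 in every gate while Cox7a2l lies below it.

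Of the 66 nuclear members with enough UMIs in all 5 gates, 53 were above 0 in all 5 and 1 was below 0 in all 5, while 41.2% of the 994 genes with enough UMIs in all 5 gates were above 0 in all and 12.3% below. Beyond 1.5-fold upward in every gate were 11 members, against 6.94% of those genes: Ndufa8, Ndufb6, Ndufc2 and Ndufab1 of complex I, Uqcrb of complex III, Cox5a, Cox7a2 and Cox8a of complex IV, and Atp5g1, Atp5g3 and Atp5o of complex V. They came from 4 complexes. Complex II, with 4 subunits the smallest, gave none, and so few genes say little about it.

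Complex I, the NADH dehydrogenase, was higher as a sum of its nuclear subunits by 0.76 on the log2 scale in B-like, 0.63 in CD8 T-like, 0.41 in CD4 T-like, 0.38 in NK-like and 0.41 in mononuclear phagocyte-like cells. The sum goes by gene names and includes Ndufa4. Ndufab1, the mitochondrial acyl carrier protein, stood at 88.1, 233, 275 and 229 CPM in B-like cells of Naïve, the vehicle, the TCDD and the FICZ library in this order, and at 140, 368, 405 and 379 CPM in CD8 T-like cells. The Naïve value lay below the other 3 in both gates, and the log2 ratio of ConA+Veh over Naïve was 1.40 in each. Ndufc2, an accessory subunit of the membrane arm, had 88.1, 232, 242 and 194 CPM in B-like cells and 64.9, 187, 173 and 134 CPM in NK-like cells. Its log2 ratio was 1.40 in B-like cells and 1.53 in NK-like cells.

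Ndufb6, another accessory subunit of the membrane arm, had 73.3, 199, 245 and 194 CPM in B-like cells, a log2 ratio of 1.44. Ndufb8, of the same arm, had 111, 275, 280 and 270 CPM in CD8 T-like cells, a log2 ratio of 1.31. Ndufa12, an accessory subunit of the peripheral arm, had 53.4, 148, 99.6 and 120 CPM in NK-like cells. Each of these was lowest in Naïve. Ndufv3, a small subunit of the NADH-binding module, had 168 CPM in Naïve and 407 in ConA+Veh mononuclear phagocyte-like cells, with 262 and 333 in ConA+TCDD and ConA+FICZ. Ndufa4 is named for complex I and is now placed in complex IV: it had 226, 649, 682 and 600 CPM in B-like cells, where its log2 ratio was 1.52 (1.39 to 1.65), and 366, 672, 772 and 851 CPM in CD8 T-like cells. Not every subunit passed 1.5-fold: Ndufa3, of the membrane arm, had 325, 382, 368 and 357 CPM in B-like cells, where Naïve was still the lowest.

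The assembly factors, which help build complex I and leave it, were less different as a sum: 0.29 in B-like and 0.47 in CD8 T-like cells on the log2 scale. They also split. Ndufaf2 had 24.5, 63.2, 66.1 and 46.3 CPM in CD8 T-like cells, a log2 ratio of ConA+Veh over Naïve of 1.37. Ndufaf3 had 39.5, 32, 25.8 and 37.1 CPM in B-like cells, a log2 ratio of -0.30 that did not reach 1.5-fold.

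Complex II, succinate dehydrogenase, links the chain to the citric acid cycle. Sdhb, its iron-sulfur subunit, had 122, 216, 231 and 207 CPM in B-like cells, 153, 302, 289 and 290 in CD8 T-like cells and 146, 297, 263 and 259 in CD4 T-like cells. Naïve was the lowest library in all 3. Sdhd, a membrane anchor, had 55.8, 103, 113 and 98.1 CPM in B-like cells. Sdha, the flavoprotein that oxidises succinate, had 98.4, 81.8, 83.6 and 97.6 CPM there, a log2 ratio of -0.27. The subunits of this small complex thus stood in opposite directions in B-like cells, although Sdha did not reach 1.5-fold. The sum of the complex had log2 ratios of 0.58, 0.82, 0.73, 0.04 and 0.30 in B-like, CD8 T-like, CD4 T-like, NK-like and mononuclear phagocyte-like cells.

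Complex III passes electrons from ubiquinol to cytochrome c. Uqcrq, a small subunit, had 157, 362, 507 and 387 CPM in B-like cells, a log2 ratio of 1.21 for ConA+Veh over Naïve. Uqcrb, also a small subunit, had 156, 367, 372 and 367 CPM in NK-like cells, a log2 ratio of 1.23. Uqcrh, the hinge protein that holds cytochrome c1, went the other way in CD8 T-like cells, with 645 CPM in Naïve and 514, 522 and 537 in the ConA libraries, while in B-like cells it had 572, 684, 626 and 624. The sums of the nuclear subunits had log2 ratios of 0.62, 0.58, 0.31, 0.52 and 0.39.

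Complex IV, cytochrome c oxidase, reduces oxygen. Cox5a, a matrix-facing subunit, had 219, 574, 609 and 571 CPM in B-like cells, 295, 639, 695 and 700 in CD8 T-like cells and 346, 759, 775 and 514 in mononuclear phagocyte-like cells. Its log2 ratios of ConA+Veh over Naïve were 1.39, 1.11 and 1.13. Cox8a, the smallest subunit, was less different and more even: its log2 ratio lay between 0.63 and 0.76 over the 5 gates, with 641, 1084, 1068 and 1056 CPM in B-like cells. Cox4i1, the common form of subunit 4, had 568, 936, 939 and 919 CPM in B-like cells. The sums, which go by gene names and leave out Ndufa4, had log2 ratios of 0.77, 0.59, 0.44, 0.57 and 0.53.

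Cox7a2l was the single nuclear member that was lower in ConA+Veh than in Naïve in all 5 gates. It resembles the complex IV subunit Cox7a2. It is known as a supercomplex assembly factor that joins complex III to complex IV, a role not measured in these mice. It had 354, 159, 183 and 168 CPM in CD8 T-like cells, 252, 152, 147 and 174 in CD4 T-like cells and 247, 207, 172 and 194 in B-like cells. In each of these gates the Naïve library was the highest, and the log2 ratio of ConA+Veh over Naïve was -1.16 (-1.37 to -0.94) in CD8 T-like, -0.73 in CD4 T-like and -0.26 in B-like cells. NK-like cells had 187, 143, 176 and 153 CPM and mononuclear phagocyte-like cells 178, 125, 161 and 102. It passed 1.5-fold in the CD8 and CD4 T-like gates.

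Cox7a2 itself was higher, with 214, 398, 424 and 394 CPM in B-like cells. Cox7a2l therefore made up 53.5% of the UMIs of the pair in Naïve B-like cells and 34.2%, 28.9% and 33% in the ConA libraries. The CD8 T-like cells had 58.3%, then 25.7%, 28.5% and 25.2%. In NK-like cells it was 37.1%, then 22.6%, 24.4% and 23.3%, and in mononuclear phagocyte-like cells 32.5%, then 16.5%, 22.9% and 16.2%. In all 5 gates Naïve was the highest of the 4 libraries, CD4 T-like cells with 46.6% against 21.6% to 26.8% included. This is a ratio within a library, so it does not depend on the denominator of the CPM.

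Complex V uses a ring of c subunits that 3 nuclear genes code for, Atp5g1, Atp5g2 and Atp5g3, whose mature proteins are identical. Atp5g3 had 351, 867, 983 and 870 CPM in B-like cells and 560, 1149, 1292 and 1391 in CD8 T-like cells. Atp5g2 had 625, 1153, 1203 and 1228 CPM in B-like cells. Both were lowest in Naïve, and their mix differed: Atp5g2 gave 53.9% of the c-ring UMIs in Naïve B-like cells and 46.6%, 44.9% and 48.4% in the ConA libraries, with Atp5g3 at 30.2% in Naïve and 35.1% in ConA+Veh. The part of Atp5g2 in CD8 T-like cells was 44.8% in Naïve and 37.5% in ConA+Veh.

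Atp5e, the epsilon subunit of the central stalk, had 883, 1301, 1430 and 1294 CPM in B-like and 925, 1224, 1351 and 1252 in CD8 T-like cells. Atp5k, a small membrane subunit that joins ATP synthases into dimers, had 215, 316, 349 and 243 CPM in CD8 T-like cells but 347, 258, 306 and 233 in CD4 T-like cells, where its log2 ratio of ConA+Veh over Naïve was -0.43. The sums of complex V had log2 ratios of 0.78, 0.65, 0.35, 0.49 and 0.49.

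Other nuclear genes for mitochondrial proteins, from lists set with earlier results of these data known, were looked at beside the members. Of the proteins of the mitochondrial ribosome, which translates the 13 mitochondrial messages, 58 of 75 with enough UMIs were higher in ConA+Veh than in Naïve in B-like cells and 52 of 76 in CD8 T-like cells, with medians of 0.81 and 0.88 and none lower. Of the import machinery, 11 of 22 were higher and 2 lower in each of these gates. For the enzymes of the citric acid cycle, 3 of 17 were higher and 1 lower in B-like cells and 6 of 17 were higher in CD8 T-like cells, near the 17.8% and 31.5% over all genes, with medians of 0.26 and 0.48. Of the other genes of the chain and the ATP synthase (cytochrome c and further assembly factors among them), 9 of 22 were higher and 1 lower in B-like cells. The shares over all genes there were 17.8% and 30.6%. In CD8 T-like cells 8 of 21 were higher and 2 lower, against 31.5% and 13.5%. The medians were 0.37 and 0.00, the latter below the 0.21 over all genes. Of the regulators of mitochondrial gene expression, 1 of 12 was higher in B-like and 5 of 9 in CD8 T-like cells, with medians of -0.10 and 0.58.

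Transcript length moved with these ratios. Most members are short messages, and among genes that are neither members nor ribosomal, those under 1000 bases had a median log2 ratio of 0.17 in B-like cells against -0.29 for the longer ones, and 0.37 against 0.18 in CD8 T-like cells. The short members had 0.76 and 0.77 and the long members 0.72 and 0.55, above both. In CD4 T-like cells short members had 0.42 and other short genes 0.35, and 34.5% of short members were higher against 32.2% of other short genes. The part of transcript length in the result was not tested.

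The mitochondrial members went the other way or stayed closer. Their share of UMIs in B-like cells was 4.35% in Naïve, 2.98% in ConA+Veh, 3.33% in ConA+TCDD and 2.93% in ConA+FICZ. In NK-like cells it was 3.92%, 2.49%, 2.43% and 2.56%. The Naïve library was the highest of the 4 in both gates, with log2 ratios of ConA+Veh over Naïve of -0.54 (-0.55 to -0.53) and -0.65 (-0.69 to -0.62). In CD8 T-like cells the shares were 4.34%, 4.10%, 3.33% and 2.82%, a log2 ratio of -0.08 (-0.10 to -0.06). CD4 T-like cells had 3.63%, 3.19%, 2.52% and 2.08%, a log2 ratio of -0.19 (-0.21 to -0.16). Mononuclear phagocyte-like cells had 3.53%, 2.87%, 3.06% and 3.76%, with ConA+FICZ the highest library and a log2 ratio of ConA+Veh over Naïve of -0.30 (-0.34 to -0.26).

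Nuclear UMIs per mitochondrial UMI were lowest in Naïve in every gate compared. B-like cells had 0.367 in Naïve and 0.897, 0.844 and 0.902 in the ConA libraries, and CD8 T-like cells 0.453, then 0.736, 0.955 and 1.15. NK-like cells had 0.512, then 1.12, 1.13 and 1.06. CD4 T-like cells had 0.64, then 0.953, 1.24 and 1.54, and mononuclear phagocyte-like cells 0.627, then 1.06, 0.967 and 0.715. Thinned to 1000 UMIs, the higher ratio of ConA+Veh did not hold in the T-like gates. The CD8 T-like nuclear shares were then 1.66% in Naïve and 2.48% in ConA+Veh, and the mitochondrial ones 5.17% and 7.78%. CD4 T-like cells had 1.83% and 2.35%, and 4.94% and 6.67%. In the other gates the thinned mitochondrial share stayed lower in ConA+Veh. Counted per cell and not per UMI, the gates split. The mean number of mitochondrial UMIs per cell was 106 in Naïve and 169 in ConA+Veh B-like cells, 184 and 479 in CD8 T-like, 153 and 346 in CD4 T-like and 79.7 and 87.7 in NK-like cells, but 153 and 145 in mononuclear phagocyte-like cells. The NK-like median went the other way from its mean, 70 and 62.

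In B-like cells 6 of the 13 mitochondrial members were lower in ConA+Veh than in Naïve and none was higher, while 30.6% of all genes were lower. In NK-like cells 7 of 12 were lower, against 16.5% of all genes. Of 13 in CD8 T-like cells 1 was lower, against 13.5%. In CD4 T-like cells 1 of 12 was lower and 1 higher, against 13% and 27.1%. In mononuclear phagocyte-like cells 3 of 12 were lower, against 12.4%. Of the 12 with enough UMIs in all 5 gates, 4 were below 0 in all, against 12.3% of all such genes. They were mt-Co1 and mt-Co3, core subunits of complex IV, mt-Atp6, the proton channel of complex V, and mt-Nd5 of complex I. mt-Atp8, on the same RNA as mt-Atp6, was not among them. The UMIs of mt-Atp6 per mt-Atp8 UMI were lower in ConA+Veh in all 5 gates, for B-like cells 1.99 in Naïve and 0.92 in ConA+Veh. mt-Co1 had 9704, 5375, 5747 and 5206 CPM in B-like cells and 9110, 6772, 5382 and 4567 in CD8 T-like cells. mt-Nd1, another membrane subunit of complex I, stood apart from these in the T-like gates: it had 1475 CPM in Naïve and 2100 in ConA+Veh CD8 T-like cells (log2 ratio 0.51), and 1009 and 1625 in CD4 T-like cells (0.69), the single mitochondrial member beyond 1.5-fold upward in this contrast. In the B-like, NK-like and mononuclear phagocyte-like gates mt-Nd1 was lower in ConA+Veh than in Naïve. In CD8 T-like cells 8 of the 13 mitochondrial members were above 0. mt-Nd6, the subunit encoded on the light strand, had its highest B-like level in Naïve, with 74.4, 34.9, 30.1 and 57.4 CPM.

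The T-like gates were less even than these sums show. The median CD8 T-like cell had a mitochondrial share of 4.53% in Naïve and 3.22%, 2.74% and 2.55% in the ConA libraries, so the median cell was below Naïve although the summed share in ConA+Veh was close to it. A part of the cells had high shares: 27.4% of CD8 T-like cells in ConA+Veh had over 10% of their UMIs in mitochondrial genes. The other libraries had 4.88% in Naïve, 17.6% in ConA+TCDD and 12% in ConA+FICZ. CD4 T-like cells had 28.2% such cells in ConA+Veh against 6.41%, 18.2% and 8.64%. Other gates held them too. From Naïve to ConA+FICZ, B-like cells had 2.87%, 11.6%, 12.9% and 5.47%, and mononuclear phagocyte-like cells 0%, 6.88%, 14.3% and 12.7%. NK-like cells had 3.88%, 5.48%, 1.74% and 1.94%. A high mitochondrial share is a common sign of damaged cells. Without these cells, a filter that cuts the mitochondrial sum by its own value, the log2 ratio of ConA+Veh over Naïve was -0.59 in CD8 T-like and -0.76 in CD4 T-like cells, while thinned to 1000 UMIs, which leaves out shallower cells and gives every cell the same weight, it was 0.59 and 0.43. Its sign in the T-like gates thus changed between these settings.

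**Figure D3:**
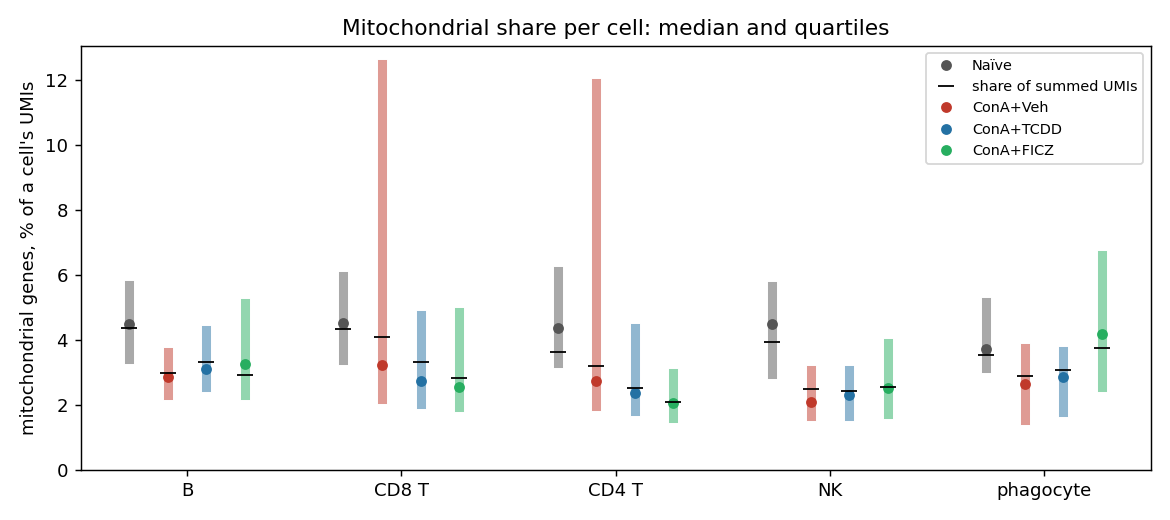
Mitochondrial share of a cell's UMIs (%, linear axis) by gate and library, with the median as a point and the quartiles as a bar, and a black dash for the share of the summed UMIs. In ConA+Veh the dash of the CD8 T-like gate, 4.10%, lies above its median cell, 3.22%.

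ConA+TCDD and ConA+FICZ were each compared with ConA+Veh, and the comparisons share that library. The nuclear sum differed little with TCDD: the log2 ratio of ConA+TCDD over ConA+Veh was 0.07, 0.07, 0.04, -0.02 and -0.04 in B-like, CD8 T-like, CD4 T-like, NK-like and mononuclear phagocyte-like cells. Of the nuclear members with enough UMIs, 2 of 85 were higher and 0 lower in B-like cells, where 7.35% of all genes were higher or lower. In CD8 T-like cells 0 of 86 passed 1.5-fold (5.17% of all genes) and in CD4 T-like cells 0 of 78 (4.56%). In NK-like cells 1 of 70 was higher and 1 lower (5.1%), and in mononuclear phagocyte-like cells 1 was higher and 2 lower of 70 (20.6%). Each of these counts was a smaller share of the members than the share over all genes, which was not tested. All genes and members were not matched for their number of UMIs, here or in the other counts.

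Ndufaf4, an assembly factor of complex I whose promoter is shown above, had 35.7, 37.9, 64.2 and 52.1 CPM in B-like cells, a log2 ratio of ConA+TCDD over ConA+Veh of 0.76 (0.42 to 1.09). It had 64.8, 65.7, 97 and 106 CPM in CD8 T-like cells, with a log2 ratio of 0.56 (0.32 to 0.81) for TCDD and 0.69 (0.46 to 0.93) for FICZ over ConA+Veh. In both gates the values of Naïve and ConA+Veh lay close together and below those of both ligand libraries, although FICZ in B-like cells (0.46) and TCDD in CD8 T-like cells did not reach 1.5-fold. CD4 T-like cells had 51.7, 71.5, 83.6 and 82.6 CPM, with log2 ratios over ConA+Veh of 0.23 for TCDD and 0.21 for FICZ. Ndufaf6, another assembly factor, had 6.46, 14, 21.4 and 19.9 CPM in B-like cells and a log2 ratio of 0.61 with TCDD. In NK-like cells Ndufs3, a core subunit of complex I, had 76.3, 81.8, 128 and 138 CPM, and Uqcrc2, a core protein of complex III, had 84, 148, 90.8 and 95.7. In mononuclear phagocyte-like cells, where ConA+TCDD had 28 cells, Ndufb9 had 231, 269, 406 and 307 CPM and Ndufv3 had the values given above, a log2 ratio of -0.63.

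The mitochondrial sum with TCDD was 0.16 (0.15 to 0.17) in B-like, -0.30 (-0.31 to -0.29) in CD8 T-like, -0.34 (-0.36 to -0.32) in CD4 T-like, -0.04 in NK-like and 0.09 in mononuclear phagocyte-like cells. None of the 13 mitochondrial members reached 1.5-fold in CD8 T-like cells, where 5.17% of all genes did, while all 13 were below 0. Their median log2 ratio was -0.30, beside a median over all genes of -0.01. Cells with over 10% mitochondrial UMIs moved with the T-like values, 27.4% in ConA+Veh against 17.6% in ConA+TCDD for the CD8 T-like gate. Without them the shares of ConA+Veh and ConA+TCDD lay closer, 2.64% and 2.37% in CD8 T-like and 2.03% and 1.88% in CD4 T-like cells. The sign changed in mononuclear phagocyte-like cells (2.53% and 2.43%, with 28 cells in ConA+TCDD before the cut) and in NK-like cells (2.19% and 2.38%).

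With FICZ the nuclear sum had log2 ratios over ConA+Veh of -0.02, 0.11, 0.07, -0.03 and -0.18 in the same order of gates. In B-like cells 0 of 87 nuclear members passed 1.5-fold (6.02% of all genes), in CD8 T-like cells 1 of 86, which was Ndufaf4 (10.2%), and in CD4 T-like cells 0 of 77 (11.4%). In NK-like cells 1 was higher and 2 lower of 70 (9.49%): Ndufs3 was higher, and Uqcrc2 and the Rieske iron-sulfur protein Uqcrfs1, with 107, 186, 189 and 118 CPM, were lower. In mononuclear phagocyte-like cells 1 of 74 was lower (11%), the complex I subunit Ndufb11, with 231, 242, 239 and 149 CPM.

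The mitochondrial sum was lower with FICZ than with vehicle in the T-like gates and higher in mononuclear phagocyte-like cells. Its log2 ratio was -0.54 (-0.55 to -0.53) in CD8 T-like, -0.62 (-0.64 to -0.59) in CD4 T-like and 0.39 (0.36 to 0.42) in mononuclear phagocyte-like cells, with -0.03 in B-like and 0.04 in NK-like cells. In CD4 T-like cells 8 of 12 mitochondrial members were lower, and in CD8 T-like cells 5 of 13, where 11.4% and 10.2% of all genes were higher or lower. mt-Atp8, the small subunit of complex V, had 2565, 3180, 2303 and 1311 CPM in CD8 T-like cells and 2137, 2541, 1877 and 1200 in CD4 T-like cells, the lowest value of the 4 being ConA+FICZ in both. It was not particular to the T-like gates. In B-like cells 1 of 13 members was lower and 1 higher (6.02% of all genes), and in NK-like cells 1 of 12 was lower (9.49%). The lower member was mt-Atp8 in both, with log2 ratios of -0.69 and -0.63, although the sums there were close to those of ConA+Veh. mt-Nd2, of complex I, had 1710, 1989, 1615 and 1198 CPM in CD8 T-like cells. In mononuclear phagocyte-like cells 1 member of 12 was higher, mt-Atp6, with 3536, 2218, 2786 and 3679 CPM, where 11% of all genes were higher or lower. The ratio of mt-Atp6 to mt-Atp8, which share 1 RNA, differed between ConA+Veh and ConA+FICZ in every gate compared, as given below. Cells with over 10% mitochondrial UMIs moved with the T-like values, 27.4% in ConA+Veh against 12% in ConA+FICZ for the CD8 T-like gate, and without them its log2 ratio was -0.20 and that of the CD4 T-like gate -0.14, while the phagocyte-like value was 0.41.

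Set directly against each other, ConA+FICZ over ConA+TCDD, the nuclear sums had log2 ratios of -0.09, 0.03, 0.03, -0.01 and -0.14. In B-like cells 1 of 84 nuclear members was lower (9.59% of all genes), the assembly factor Ndufaf2 with 36 CPM in ConA+TCDD and 23.9 in ConA+FICZ. In CD8 T-like cells 0 of 86 passed 1.5-fold (6.73%), in CD4 T-like cells 0 of 77 (8.09%), and in NK-like cells 1 of 66 was lower (9.12%), Uqcrfs1. In mononuclear phagocyte-like cells 5 of 65 were lower (29.1%), Atp5g3 among them with 1008 and 610 CPM. The ligands differ in their ring systems, a chlorinated dibenzodioxin against an indolocarbazole. The dose and time of FICZ are not given in the sources used here, so these values stand side by side.

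The bicistronic message of mt-Atp8 and mt-Atp6, whose reading frames overlap and which is read from 1 RNA, gave a further contrast within the mitochondrial members. Over all cells there were 2.05 mt-Atp6 UMIs per mt-Atp8 UMI in Naïve, 1.05 in ConA+Veh, 1.35 in ConA+TCDD and 2.11 in ConA+FICZ. In B-like cells the ratios were 1.99, 0.92, 1.16 and 1.99, and in CD8 T-like cells 1.95, 1.07, 1.43 and 2.2. CD4 T-like cells had 2.05, 1.09, 1.4 and 1.96, NK-like cells 1.93, 0.974, 1.27 and 1.99 and mononuclear phagocyte-like cells 2.24, 1.28, 1.47 and 2.16. In each of these gates, ConA+Veh was the lowest library, ConA+TCDD the next, and Naïve and ConA+FICZ stood near each other. Neutrophil-like cells (2.09, 1.19, 1.5 and 2.59) and endothelial-like cells (2.6, 1.35, 1.65 and 2.1) had the same lowest library, although ConA+TCDD held 8 endothelial-like cells. The lowest library was thus shared by unlike cells, while the order of Naïve and ConA+FICZ was not. In neutrophil-like and endothelial-like cells the intervals of ConA+Veh and ConA+TCDD overlapped. The part of library preparation in these ratios was not tested. The other overlapping pair, mt-Nd4 and mt-Nd4l, had 0.52 mt-Nd4 UMIs per mt-Nd4l UMI in Naïve and 0.451, 0.465 and 0.463 in the ConA libraries over all cells, but its gates went different ways. B-like cells had 0.52, 0.333, 0.333 and 0.382, CD8 T-like cells 0.442, 0.439, 0.496 and 0.478, and mononuclear phagocyte-like cells 0.512, 0.727, 0.744 and 0.592.

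**Figure D4:**
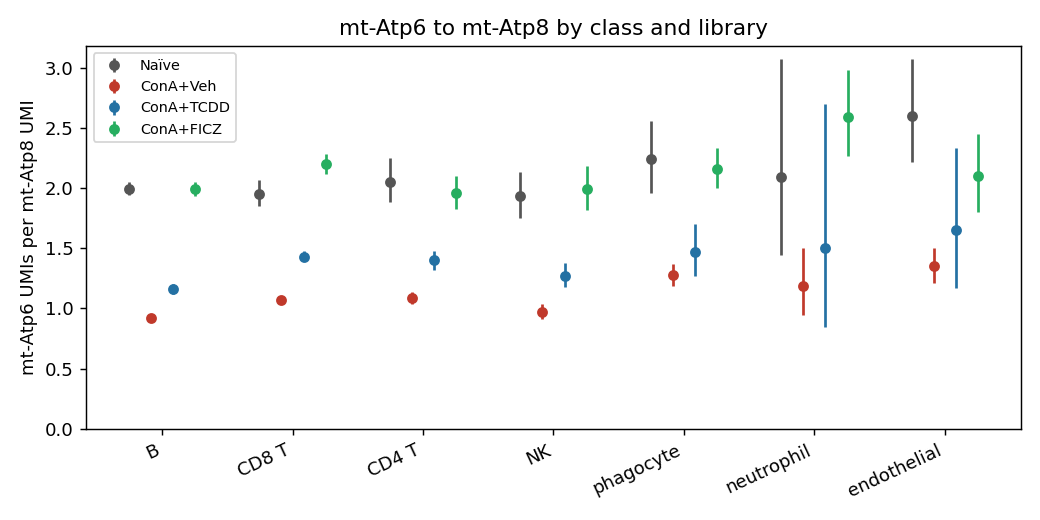
mt-Atp6 UMIs per mt-Atp8 UMI by gate and library, with 95% intervals for counting error. ConA+Veh is the lowest point in every gate drawn, with 0.92 in B-like and 1.35 in endothelial-like cells.

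Dividing cells were told from the rest among the CD8 T-like cells by cell cycle genes: 2 of 164 cells in Naïve, 248 of 350 in ConA+Veh, 121 of 244 in ConA+TCDD and 116 of 216 in ConA+FICZ. Within ConA+Veh the cycling cells had a nuclear share of 3.04% and the others 2.91%, a log2 ratio of 0.06 (0.04 to 0.09). Within ConA+TCDD the shares were 3.27% and 2.98%, and within ConA+FICZ 3.36% and 3%. Thinned to 1000 UMIs, the log2 ratio was -0.07 in ConA+Veh, -0.01 in ConA+TCDD and 0.07 in ConA+FICZ. The difference between cycling and other cells was thus smaller than that between ConA+Veh and Naïve, and among non-cycling cells alone ConA+Veh over Naïve was 0.61. The mitochondrial share was 4.29% in cycling and 3.2% in other cells of ConA+Veh, 3.45% and 3.04% in ConA+TCDD, and 2.92% and 2.57% in ConA+FICZ. Cells over 10% mitochondrial moved with it, at 31% of cycling and 18.6% of other cells in ConA+Veh, and without them the log2 ratios were 0.16, -0.08 and -0.14. Among non-cycling cells ConA+Veh over Naïve was -0.43. Non-cycling cells gave a log2 ratio of -0.32 for FICZ over ConA+Veh and -0.07 for TCDD over ConA+Veh.

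A few members come in forms tied to a tissue, and these had their highest levels in small gates. Cox6a2, the muscle form of complex IV subunit 6a, had 799 UMIs, of which 343 were in plasmacytoid dendritic-like cells. There it stood at 2509 CPM and made up 84.1% (80.1% to 87.5%) of the Cox6a1 and Cox6a2 UMIs, with 84.8%, 75.8%, 88.7% and 87.9% in the 4 libraries in the usual order. The gate with the next level, granulocyte progenitor-like, had 31.1 CPM. The 4 libraries each showed it, with 6 to 15 cells apiece. Among the 77 cells with Siglech, a defining gene of plasmacytoid dendritic cells, counted without the gate, 66.2% had a Cox6a2 UMI against 0.922% of other cells, at a mean depth of 4440 and 5742 UMIs.

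Cox4i2, the form of subunit 4 known from lung and from low oxygen, had 614 UMIs, and 511 of them were in cells that passed no gate. Of the gates, granulocyte progenitor-like cells had 66.4 CPM and mononuclear phagocyte-like cells 29 CPM, where Cox4i2 made up 5.19% and 2.55% of the subunit 4 UMIs. In B-like cells it made up 0.026%. Among 246 cells with both Prtn3, a granule protease of early myeloid cells, and Ms4a6c, a monocyte gene, a pair chosen after values were seen, Cox4i2 stood at 126 CPM against 1.04 in other cells. These cells held 91.7% of its UMIs, and 37% of them had one. Their mean depth was 18177 UMIs against 5393, and whether some were doublets was not tested. Cox6b2, the testis form of subunit 6b, had 14 UMIs in erythroid-like cells, 27.5% (15.9% to 41.7%) of its pair.

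**Figure D5:**
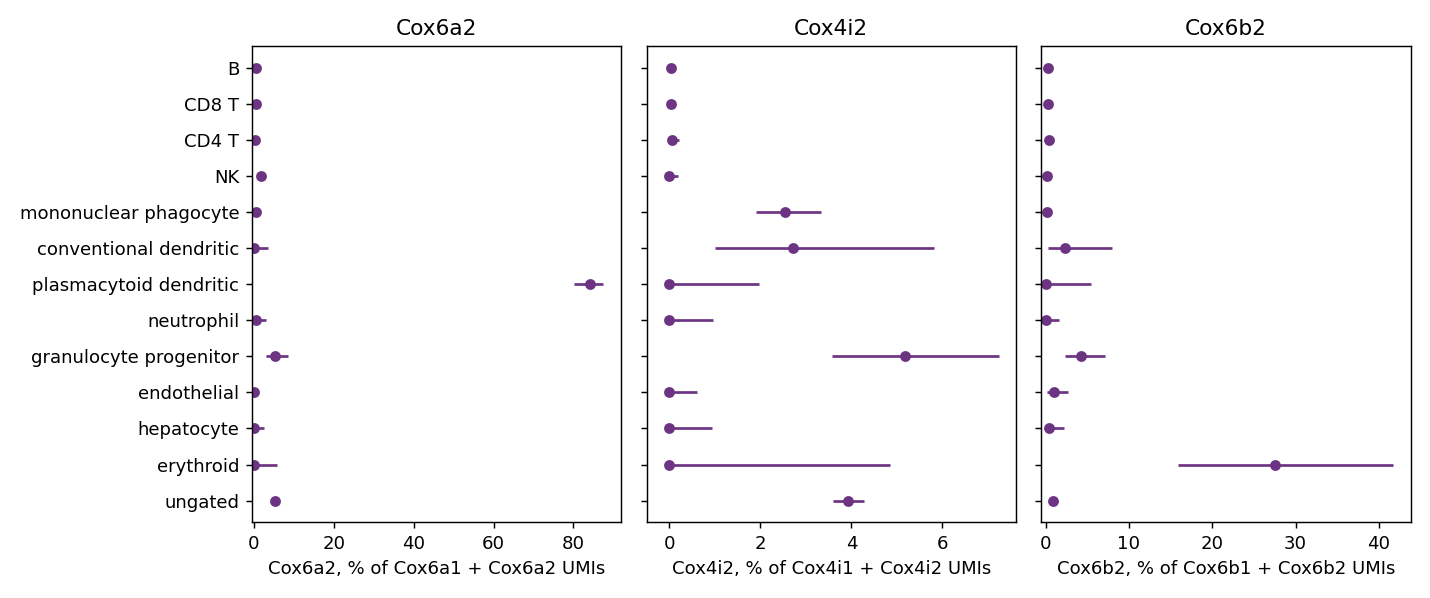
Share (%, linear axis) of Cox6a2, Cox4i2 and Cox6b2 among the UMIs of each one and its common form by gate, the 4 libraries summed, with exact 95% binomial intervals. Cox6a2 stands at 84.1% in plasmacytoid dendritic-like cells.

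The remaining forms were rare. Cox7a1, the heart form of subunit 7a, made up 0.439% of its pair over all cells. Ndufa4l2, a relative of Ndufa4 known from low oxygen, had 6 UMIs, all in ConA+Veh. Cox8b had 0 of the 58569 UMIs of its pair, which allows a share of up to 0.0063% in counting error terms.

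Outside the 5 gates the levels spread widely. Neutrophil-like cells, which are known for few mitochondria, had lower nuclear shares than any of the 5 gates, with 0.699%, 0.908%, 1.07% and 0.777% from Naïve to ConA+FICZ in the same order, in 24 to 261 cells. Their mitochondrial shares were 1.61%, 0.914%, 0.495% and 1.18%, with ConA+TCDD the lowest. Endothelial-like cells had nuclear shares of 2.47%, 2.80% and 2.58% in the 3 libraries with more than 8 such cells, closer together than in the lymphocyte gates. Hepatocyte-like cells, named for the mitochondria-rich parenchyma of the liver, numbered more than 4 in 2 libraries. They had 23 cells in Naïve with a nuclear share of 5.73%, and 139 in ConA+FICZ with 3.61%. Their median depth was 1087 and 1106 UMIs, and whether they were whole cells was not tested. Their mitochondrial shares were 2.06% and 0.777%, with no mitochondrial UMI at all in 52.2% and 73.4% of the cells, so nuclear messages outnumbered mitochondrial ones in these libraries and the median cell had no mitochondrial UMI. The 4 such cells of ConA+Veh went the other way, with a mitochondrial share of 40.2%.

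In the hepatocyte-like cells Atp5g3 gave 53.9% of the c-ring UMIs in Naïve and 55.3% in ConA+FICZ, where B-like cells had 30.2% in Naïve. Its level was 3349 CPM in Naïve and 1911 in ConA+FICZ. Ndufs3, a core subunit of complex I, had 538 and 264 CPM there, against 92.7 and 143 in B-like cells of the same libraries. Cox4i1 had 1041 CPM in Naïve and 1335 in ConA+FICZ. Plasmacytoid dendritic-like cells, with 6 to 15 cells a library, had mitochondrial shares of 7.82%, 3.91%, 4.10% and 6.66%.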

How the data were processed

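Single-cell RNA was measured in 4 libraries of liver mononuclear cells, 1 per group. The authors used Cell Ranger 3.0.2 with the mm10 genome, and deposited 1 filtered matrix of raw UMI counts per library, in which the shallowest cell had 500 or 501 UMIs. No column of other samples was used. Members and lists were chosen with earlier results of these data known. Counts were summed over the members by gate and library and divided by all UMIs of the gate. Shares of a gate's UMIs and CPM have exact Poisson intervals at 95%. Shares within a pair of tissue forms and log2 ratios have exact binomial ones, and all cover counting error only. No test was possible with 1 library per group. Gates and cycling calls (at least 2 cell cycle genes with a UMI) came from fixed marker lists, and no doublet caller was run. Genes to name were drawn by a rule, and only a part of the genes that met the rule is named. The rule took the mitochondrial genes, the 3 nuclear genes with the most UMIs per complex and the tissue forms. It also took the 3 most higher and 3 most lower nuclear members per comparison and gate, and the 3 most gate-specific members. Ndufa11 and Atp5l were shown for their motifs and chosen after the data were seen, as were genes named only to complete a count. The values of 1 member are not reported here. Promoters came from RefSeq. The alternatives were a stricter gate, leaving out cells over 10% mitochondrial, a denominator without ribosomal and mitochondrial genes, a mean over cells, thinning to 1000 UMIs, UMIs per cell, leaving out the top member and the median over genes, with other thresholds for the counts of members and of cell cycle genes. Chosen after seeing the data were gates on Siglech or on Prtn3 with Ms4a6c, non-cycling CD8 T-like cells, cells with at least 2000 UMIs and the sum without mt-Atp6 and mt-Atp8. The ratio script was tested on simulated data. The tools were scipy 1.17.1, numpy 2.4.6, matplotlib 3.10.9, pandas 2.3.3 and Python 3.11.15.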

Additional observations from a re-analysis of the deposited data

Results flagged for a closer look

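The mitochondrial sum differed in direction between gates for ConA+FICZ over ConA+Veh, with a log2 ratio of 0.39 in mononuclear phagocyte-like and -0.62 in CD4 T-like cells. For ConA+FICZ over ConA+TCDD it was 1.26 in neutrophil-like cells (261 in ConA+FICZ and 39 in ConA+TCDD) and -0.28 in CD4 T-like cells. In neither case was the difference between the gates tested, since each group had 1 library. Cells that passed no gate, which enter no comparison between gates, held 511 of the 614 Cox4i2 UMIs.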

How the results depend on the processing

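No paired analysis was possible because each group had 1 library. Of 378 alternative values of the 40 log2 ratios of single gates, 148 stayed within the counting interval, 229 moved beyond it and 1 reversed a difference past 1.5-fold (NK-like, 0.14). In all, 35 had the other sign. The nuclear ratio of ConA+Veh over Naïve kept its sign in all 45, and the mitochondrial one changed it in 11 of 50. Of these, 9 were in the T-like gates, and UMIs per cell gave the other 2, 0.14 in NK-like and 0.67 in B-like cells. The cause was not tested, and sums per cell are not corrected for depth.

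The shares below are medians over the 20 pairs of gate and library, and the ratios medians over the 5 gates, less the mononuclear phagocyte-like one where a setting left under 20 of its cells (strict gates with Naïve or ConA+TCDD, for example). The nuclear share, 2.76%, was 3.85% of the UMIs left without ribosomal and mitochondrial genes, 2.43% as a mean over cells and 2.5% after thinning to 1000 UMIs. The mitochondrial share, 3.12%, was 4.8%, 4.85% and 4.45% under those alternatives, 3.41% in the strict gates and 2.56% without cells over 10% mitochondrial. The nuclear log2 ratio of ConA+Veh over Naïve, 0.47, was 0.67 in strict gates, 0.56 thinned and 1.75 per cell, or 1.62 with the median over cells. That of ConA+TCDD over ConA+Veh, 0.04, was 0.07 in strict gates, 0.00 without cells over 10% mitochondrial, 0.01 as a mean over cells, 0.01 thinned and 0.11 per cell. That of ConA+FICZ over ConA+Veh, -0.02, was 0.01 in strict gates and with the smaller denominator, -0.03 without cells over 10% mitochondrial and as a median over genes, and -0.07 per cell.

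The mitochondrial log2 ratio of ConA+Veh over Naïve, -0.30, was -0.68 without cells over 10% mitochondrial, -0.11 as a mean over cells, -0.23 thinned, -0.38 without mt-Co1, -0.21 as a median over genes, -0.43 with non-cycling CD8 T-like cells, and 0.67 per cell, or 0.51 with the median over cells. That of ConA+TCDD over ConA+Veh, -0.04, was -0.29 in strict gates, 0.00 with the smaller denominator, -0.14 as a mean over cells and per cell, -0.25 thinned and -0.12 in cells with at least 2000 UMIs. That of ConA+FICZ over ConA+Veh, -0.03, was -0.20, 0.01, -0.09 and -0.08, -0.10 and -0.01 in the same order, with 0.10 without cells over 10% mitochondrial and -0.05 as a median over genes. That of ConA+FICZ over ConA+TCDD, -0.19, was -0.15 in strict gates and thinned, -0.16 with the smaller denominator and in cells with at least 2000 UMIs, -0.30 as a mean over cells, -0.09 per cell, -0.17 without mt-Atp6 and mt-Atp8, and 0.01 without cells over 10% mitochondrial.

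Counted as pairs of nuclear member and gate, so that a gene can count in up to 5 gates, 185 of 380 were higher in ConA+Veh than in Naïve and 2 lower. A 2-fold threshold left 44 and 1, and a minimum of 30 UMIs gave 4 lower. For ConA+TCDD over ConA+Veh, 4 higher became 0 at 2-fold, 7 at 30 UMIs and 7 in strict gates, and 3 lower became 1, 6 and 0. For ConA+FICZ over ConA+Veh, 2 higher became 0, 4 and 6, and 3 lower became 0, 10 and 5. For ConA+FICZ over ConA+TCDD, 0 higher became 6 at 30 UMIs and 3 in strict gates, and 7 lower became 0 at 2-fold, 11 at 30 UMIs and 3 in strict gates. The shares over all genes at 1.5-fold are given above for each gate. Under the other settings they were not counted, so those counts have no background beside them. Cox6a2 at 2509 CPM was 5803 in the strict gate and 1749 in Siglech cells. Cox4i2 at 66.4 CPM was 185 in the strict gate and 126 in cells with Prtn3 and Ms4a6c.

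Cycling over other CD8 T-like cells also moved. In ConA+Veh the nuclear 0.06 was -0.07 thinned and 0.12 without cells over 10% mitochondrial, and the mitochondrial 0.42 was 0.55 and 0.16, with 0.15 when 3 cell cycle genes were asked for. In ConA+TCDD the nuclear 0.13 was -0.01, 0.16 and 0.16 and the mitochondrial 0.18 was 0.71, -0.08 and 0.02 under the same 3. In ConA+FICZ the nuclear 0.16 was 0.07 and 0.19, and the mitochondrial 0.18 was 0.70, -0.14 and -0.02.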
